A study of Mus musculus with 3 samples.

Results

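Aminoacyl-tRNA synthetases are the enzymes that join each amino acid to its transfer RNA, and their transcripts were measured here in mouse T cells exposed to a fungal protein. The set holds 39 genes, taken by symbol from the 44788 listed in the deposited count table: 20 genes of cytosolic synthetases, 16 of mitochondrial synthetases and 3 of scaffold proteins. Symbols ending in 2 were counted as mitochondrial, with the exception of the scaffold gene Aimp2. All 39 were present, and all 39 passed the filter on low counts (at least 1 CPM, counts per 1000000 counts, in at least 2 libraries).

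RNA-seq libraries were prepared in 3 replicates, with an Ion Proton kit, from T lymphocytes of the spleen of female BALB/c mice aged 6 to 8 weeks. The cells had been isolated with beads against CD90.2 (Thy-1, a surface protein of mouse T cells), cultured in medium with little serum and exposed for 15 h to LZ-8, an immunomodulatory protein from the mushroom Ganoderma lucidum. All libraries belong to this 1 group and untreated cells were not analysed here, so the levels describe treated cells and no effect of LZ-8 can be read from them. Whether each replicate had its own mouse or culture is not stated, and p-values measure only the spread between these samples, which may be technical.

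Cells carry 2 sets of these enzymes because protein is made both in the cytosol and inside mitochondria, and most mitochondrial synthetases are encoded by separate nuclear genes. Several cytosolic synthetases sit together in a large multisynthetase complex held by scaffold proteins. In activated T cells the need for charged transfer RNA is known to grow with cell mass, and some synthetase genes are targets of the amino acid stress factor ATF4.

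The libraries held 12669690 to 19041670 counts, so that 3 counts, the limit that a count of 0 allows, correspond to at most 0.237 CPM. Counting error alone enters these limits and the intervals given further on. The 12 T cell markers summed to 5557 ± 96.8 CPM (SD, n = 3), against 18.8 ± 1.59 CPM for 7 B cell markers, 4.23 ± 0.522 CPM for 7 monocyte and macrophage markers (4 of them without a read), 0.245 ± 0.0914 CPM for 6 neutrophil markers and 1.70 ± 0.169 CPM for 5 erythroid markers. In such bulk samples, fewer cells of a type and less RNA per cell cannot be told apart.

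By their counts the cytosolic synthetases had high levels, and the mitochondrial ones, with the single exception of Lars2, did not. The part that reads of ribosomal RNA may have in the Lars2 count was not tested. Levels of different genes are compared here as CPM per kilobase of exon, where the length is all annotated exonic sequence of a gene in GENCODE vM21. On that scale the 20 cytosolic genes ranged from 22.3 to 161 with a median of 55.0, and the 16 mitochondrial genes from 1.62 to 218 with a median of 8.09. The 3 scaffold genes lay between 12.9 and 19.5. The median over the 12280 tested genes with an exon length was 8.35, so the median mitochondrial synthetase stood close to the median gene and the median cytosolic synthetase well above it. The lowest of the cytosolic genes, Eprs, exceeded 76.5% of the tested genes and the highest, Gars, exceeded 97.5%.

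**Figure D1:**
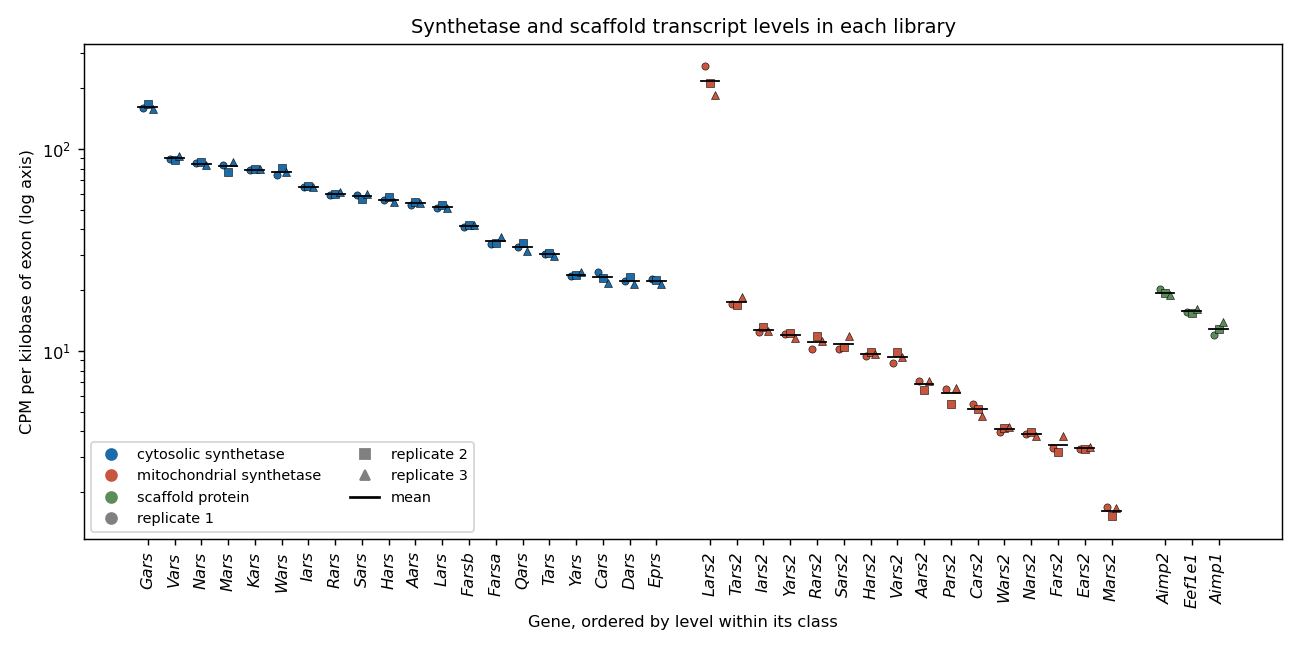
CPM per kilobase of exon (log axis) of each of the 39 genes in each library, with a bar at the mean of 3 libraries, ordered by level within the cytosolic, mitochondrial and scaffold classes. The cytosolic genes lie between 22.3 and 161, and every mitochondrial gene but Lars2 has a mean at or below 17.5.

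The difference between the class medians was 2.78, 2.79 and 2.72 log2 units in replicates 1, 2 and 3, with 2.76 ± 0.04 (SD, n = 3) as the mean, a 6.79-fold difference. Apart from Lars2, the classes did not overlap in any library. The lowest cytosolic gene was at 22.2, 22.6 and 21.5 CPM per kilobase (Dars, Eprs and Dars), and the highest of the other 15 mitochondrial genes, Tars2, was at 17.0, 17.0 and 18.6. The gap also held with levels per kilobase of the longest transcript, where the lowest cytosolic gene was Tars at 43.4 and the highest of those 15 was Tars2 at 33.6. It did not hold in CPM without length, where 2 cytosolic genes, Dars (97.3 CPM) and Farsb (109 CPM), lay below Tars2 (121 CPM). Without Lars2 the class difference was 2.98 ± 0.10 log2 units. No test was run on this difference, since genes are not replicates and all values come from 1 group.

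**Figure D2:**
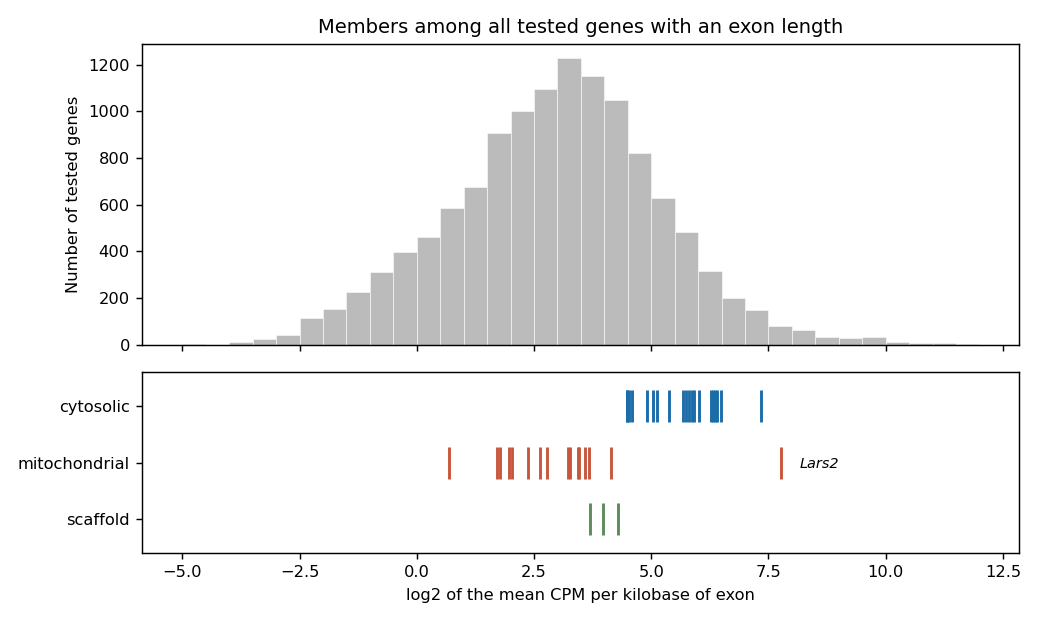
Number of tested genes in each interval of log2 mean CPM per kilobase of exon (grey bars, upper panel) and the position of each member of the 3 classes on the same axis (lower panel). All cytosolic marks lie to the right of the highest bars, while the mitochondrial marks other than Lars2 spread around them.

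Gars, which charges glycine and supplies both cytosol and mitochondria from the same gene, had the highest level of the cytosolic genes. Gars (chromosome 6, 55038007 to 55079500, GRCm38) stood at 159, 167 and 158 CPM per kilobase in replicates 1, 2 and 3. Vars, the valine enzyme that associates with elongation factor 1, followed at 89.6, 88.6 and 92.6, and Nars, the asparagine enzyme, at 85.0, 85.9 and 83.0. Gars lay clear of Vars in every library, and Vars above Nars, whereas the values of Nars overlapped those of Mars (the methionine enzyme, 82.3 ± 4.58). Kars, the lysine enzyme and the other gene that serves both compartments, was at 79.1 ± 0.717, and Wars, the tryptophan enzyme that interferon is known to induce, at 77.2 ± 3.09. The order behind Gars depends on the exon length used, since per kilobase of the longest transcript Kars stood at 146 and rank 3 in place of 6, and Vars at rank 5 in place of 3.

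A middle group of cytosolic genes was spaced closely between 51.5 and 65.2 CPM per kilobase. It comprised Iars (isoleucine, 65.2 ± 0.574), Rars (arginine, 60.1 ± 1.15), Sars (serine, 58.8 ± 1.79), Hars (histidine, 56.1 ± 1.55), Aars (alanine, 53.8 ± 0.637) and Lars (leucine, 51.5 ± 0.936). Rars and Sars overlapped in their values over the libraries, as did Sars and Hars. The grouping depends on the exon length used. Per kilobase of the longest transcript these genes ran from 69.0 (Hars) to 92.0 (Rars), with Qars (70.3) and Eprs (71.6) among them. The 2 subunits of the phenylalanine enzyme, which form a heterotetramer, were near each other with Farsb at 41.6 ± 0.602 and Farsa at 35.03 ± 1.52, Farsb being higher in each library.

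The lowest cytosolic levels were those of Qars (glutamine, 32.8 ± 1.42 CPM per kilobase), Tars (threonine, 30.1 ± 0.518), Yars (tyrosine, 23.9 ± 0.575), Cars (cysteine, 23.2 ± 1.45), Dars (aspartate, 22.3 ± 0.880) and Eprs (22.3 ± 0.679). Eprs encodes a fused enzyme for glutamate and proline. The low ranks too depend in part on the exon length used. All annotated exons of Eprs together are 3.21 times as long as its longest transcript, and per kilobase of the longest transcript Eprs stood at 71.6, rank 12 of the 39 in place of rank 21. The exonic length exceeded the longest transcript by more than 1.5 times for 16 of the 39 genes, among them Qars (70.3 per kilobase of the longest transcript), Cars (47.4), Yars (48.9) and Dars (44.8).

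The promoter windows of some cytosolic synthetases hold the core of the C/EBP-ATF response element, the site through which ATF4 is known to act on amino acid stress genes. RefSeq windows (GRCm38.p6) of 300 bases, from 250 before to 50 after the annotated start, were found for 30 of the 39 genes: 13 cytosolic, 14 mitochondrial and 3 scaffold. The letters TGATGNAA, searched on both strands, occurred in 5 of the 13 cytosolic windows (38.5%), in 0 of the 14 mitochondrial and 0 of the 3 scaffold windows, and in 4.51% of 27025 genes. At a share of 4.51%, a count of 0 in so few mitochondrial and scaffold windows is not unusual. For each of those 5 genes 1 match is shown with 11 bases on each side, read along the gene's strand. A further match in Aars, at bases -112 to -105 from the start, is not shown. Capitals mark the match shown, which reads TGATGNAA on the opposite strand except in Yars.
Aars, chr8:111033840-111033869, plus strand: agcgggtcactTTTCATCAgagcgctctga
Gars, chr6:55037960-55037989, plus strand: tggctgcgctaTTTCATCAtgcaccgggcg
Iars, chr13:49682126-49682155, plus strand: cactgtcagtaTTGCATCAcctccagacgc
Tars, chr15:11399655-11399684, minus strand: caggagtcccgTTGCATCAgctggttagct
Yars, chr4:129189895-129189924, plus strand: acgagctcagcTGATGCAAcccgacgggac

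In Tars and Gars the match ended 8 and 23 bases before the annotated start, and in Yars it began 4 bases after it. The E-box letters CACGTG, the site of Myc and related factors, occurred in 4 of the 13 cytosolic windows (Aars, Farsb, Iars and Tars), in 1 of the 14 mitochondrial windows (Ears2) and in 8.09% of genes. Aars, Iars and Tars held both motifs, which did not overlap. The 5 genes with TGATGNAA covered almost the whole span of cytosolic levels, from 23.9 CPM per kilobase (Yars) to 161 (Gars). A match describes the letters in these windows and is not evidence of binding.

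The 8 cytosolic synthetases of the multisynthetase complex and the 12 cytosolic genes outside it had almost the same median level. The complex genes are Dars, Eprs, Iars, Kars, Lars, Mars, Qars and Rars, with a median of 55.8 CPM per kilobase against 55.0 for the others. The difference was 0.01, 0.02 and 0.04 log2 units in replicates 1, 2 and 3. It turned to -0.034 per kilobase of the longest transcript and to -0.17 with means in place of medians, so its sign was not settled. The scaffold genes stood lower than the enzymes they hold. Aimp2 was at 20.3, 19.3 and 18.9 CPM per kilobase, Eef1e1 (AIMP3) at 15.6, 15.5 and 16.2, and Aimp1 at 12.01, 12.8 and 13.9. Their median was 1.81 ± 0.04 log2 units below that of the complex synthetases, a ratio of 0.285. Every scaffold value lay under the lowest value of any complex enzyme. Of the 31-mers (stretches of 31 bases) of Aimp2, 29.5% also occur in transcripts of other genes, the highest share of any member, so its count is less certain.

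Synthetases fall into 2 unrelated structural classes with different catalytic folds. Of the cytosolic genes, those of class I (Cars, Iars, Lars, Mars, Qars, Rars, Vars, Wars and Yars) had a median 0.13 ± 0.04 log2 units above those of class II, with the fused Eprs left out. Among mitochondrial genes class I, which includes Lars2, was 0.44 ± 0.16 above class II. Its median fell on Vars2 (9.32 CPM per kilobase) and that of class II on Aars2 (6.87). Without Lars2 the class I median would lie between Cars2 (5.15) and Vars2, on either side of Aars2, so this excess rests on Lars2. The differences between class I and class II were small beside the spread within each class.

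Among the mitochondrial synthetases, Tars2 and Iars2 led and Mars2 was lowest, leaving Lars2 aside. Tars2 (threonine; chromosome 3, 95739976 to 95760206) was at 17.5 ± 0.919 CPM per kilobase, Iars2 (isoleucine) at 12.7 ± 0.360, Yars2 (tyrosine) at 12.01 ± 0.337, Rars2 (arginine) at 11.1 ± 0.840 and Sars2 (serine) at 10.8 ± 0.878. Iars2 was above Yars2 in each library by a small margin, and the values of Rars2 and Sars2 overlapped. The count of Iars2 is less certain, since 23.6% of its 31-mers also occur in transcripts of other genes, 22.4% in those of Rab3gap2. Hars2 (histidine, 9.67 ± 0.262), Vars2 (valine, 9.32 ± 0.552), Aars2 (alanine, 6.87 ± 0.394), Pars2 (proline, 6.16 ± 0.632) and Cars2 (cysteine, 5.15 ± 0.350) came next. The lowest were Wars2 (tryptophan, 4.11 ± 0.139), Nars2 (asparagine, 3.88 ± 0.101), Fars2 (phenylalanine, 3.43 ± 0.338), Ears2 (glutamate, 3.29 ± 0.0403) and Mars2 (methionine, 1.62 ± 0.0889). Mars2 had 361, 217 and 276 reads, close to the 321, 213 and 253 of Ears2, but its annotated exon length of 11294 bases is the longest of the mitochondrial class.

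Each amino acid with a gene in both compartments was then compared within the libraries. There were 17 pairs over 16 amino acids, since Eprs was paired with both Ears2 and Pars2 and both Farsa and Farsb with Fars2. The cytosolic gene was higher in 16 of 17 pairs, in each of the 3 libraries. The median ratio was 5.80-fold, 13 of the 17 pairs exceeded 4-fold and 6 exceeded 8-fold.

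**Figure D3:**
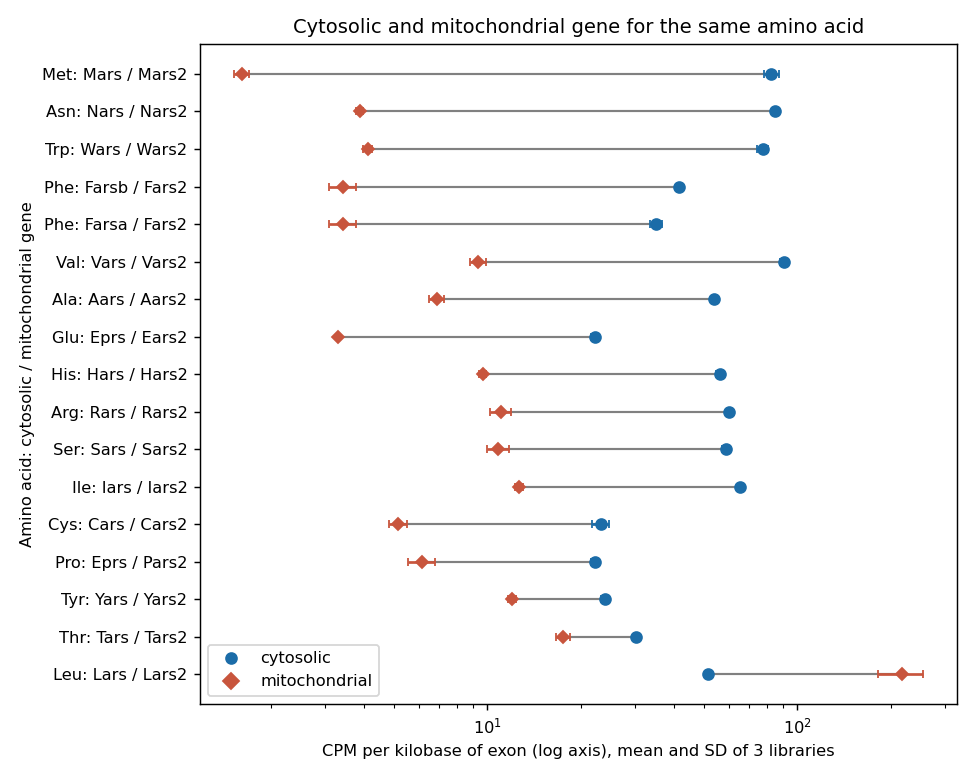
Mean CPM per kilobase of exon (log axis) of the cytosolic and the mitochondrial gene for the same amino acid, with the SD over 3 libraries, ordered by their ratio. The line is longest for methionine, at 50.8-fold, and the leucine pair is the one in which the mitochondrial gene lies to the right.

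Per kilobase of exon the methionine pair was the widest, with Mars above Mars2 by 5.64, 5.67 and 5.69 log2 units in replicates 1, 2 and 3, or 50.8-fold. Part of that rests on the long Mars2 exon, since the counts themselves, without length, differed by 3.94 log2 units, less than those of Eprs and Ears2 (4.57) or Eprs and Pars2 (4.41). Asparagine (Nars to Nars2, 21.8-fold) and tryptophan (Wars to Wars2, 18.8-fold) followed, and both mitochondrial genes had levels near 4 CPM per kilobase. Phenylalanine gave 10.2-fold for Farsa and 12.2-fold for Farsb, and valine 9.69-fold.

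Threonine and tyrosine had the smallest ratios in which the cytosolic gene was higher. Tars exceeded Tars2 by 0.83, 0.85 and 0.67 log2 units, or 1.72-fold, and per kilobase of the longest transcript by 1.29-fold. Yars exceeded Yars2 by 0.95, 0.95 and 1.08 log2 units, or 1.99-fold, which became 3.62-fold per kilobase of the longest transcript. The pairs of Eprs were also sensitive to length: Eprs to Ears2 was 6.77-fold and Eprs to Pars2 3.63-fold, against 20.7-fold and 11.5-fold per kilobase of the longest transcript, where Eprs to Ears2 stood above the asparagine pair (18.7-fold). The remaining pairs (alanine, cysteine, histidine, isoleucine, arginine and serine) lay between 4.50-fold and 7.84-fold.

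The leucine pair ran the other way in these counts. Lars2, the mitochondrial leucine enzyme (chromosome 9, 123366927 to 123462666), had 54192, 29773 and 30110 reads, or 2846, 2350 and 2046 CPM, and Lars 5226, 3578 and 4019 reads. Per kilobase of exon Lars2 stood at 257, 212 and 185, above Gars and every other member in each library. Lars2 exceeded Lars by 2.33, 2.01 and 1.86 log2 units, a mean of 4.19-fold, and by 8.84-fold per kilobase of the longest transcript. Lars2 took most of the reads on mitochondrial synthetases in each library. Its share was 82.2% for replicate 1, with an exact Clopper-Pearson 95% interval of 81.9 to 82.5%. Replicate 2 gave 79.0% (78.5 to 79.4%), and replicate 3 gave 76.3% (75.8 to 76.7%). With Lars2 the mitochondrial class held 0.304 ± 0.0393% of all counts, and without it 0.0626 ± 0.00109%, against 0.549 ± 0.00281% for the cytosolic class.

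Lars2 was also the member that differed most between the libraries. The deposited symbol Rn18s-rs5 (18S ribosomal RNA, related sequence 5) stood at 10918, 9686 and 8858 CPM, in the same order of libraries as Lars2. That order was common: 17.0% of all tested genes had it, among them 4 other members (Cars, Eprs, Cars2 and Aimp2). Replicate 1 exceeded replicate 3 by 1.39-fold for Lars2 and by 1.23-fold for Rn18s-rs5, while the other mitochondrial synthetases summed to 615, 626 and 637 CPM and the cytosolic ones to 5472, 5522 and 5475 CPM. Among 2570 genes of at least 100 CPM, 3, Lars2 included, had a ratio of replicate 1 to replicate 3 as high as that of Lars2.

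The annotated Lars2 transcript holds a stretch in common with a symbol listed as related to ribosomal RNA. Of 11 such symbols listed, 6 had annotated transcripts to search, and Rn18s-rs5 was not among them. The sequence of ribosomal RNA itself was not searched. In a search of all members' transcripts against those of these 6 symbols, Lars2 was the only member of 39 with a match. Bases 3278 to 3349 of a Lars2 transcript of 3894 bases (chromosome 9, 123462048 to 123462119), 373 bases past the coding part and so in the 3′ untranslated region, matched Gm15564 over 72 bases with 1 mismatch. Gm15564 was placed in that list from general knowledge, and it is annotated in GENCODE as an antisense gene on chromosome 16. Of the 11160 31-mers of Lars2, 0.923% occur in transcripts of any other annotated gene. The counts do not show where along Lars2 the reads fell, and the part that reads of ribosomal RNA may have in its count was not tested.

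The remaining members differed little between the libraries. A likelihood-ratio test in edgeR that allows counting noise alone (dispersion 0) compares the libraries with each other, not conditions. It called 9 of the 39 members at an adjusted p under 0.05, against 13.7% of all 13500 tested genes. The test calls abundant genes more readily. Among genes of at least 100 CPM it called 33.9% and 8 of the 22 members at that level (36.4%). Among the others it called 8.94% and 1 of 17 members (5.88%). The members' share was thus near that of all genes in each of these broad ranges of level.

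**Figure D4:**
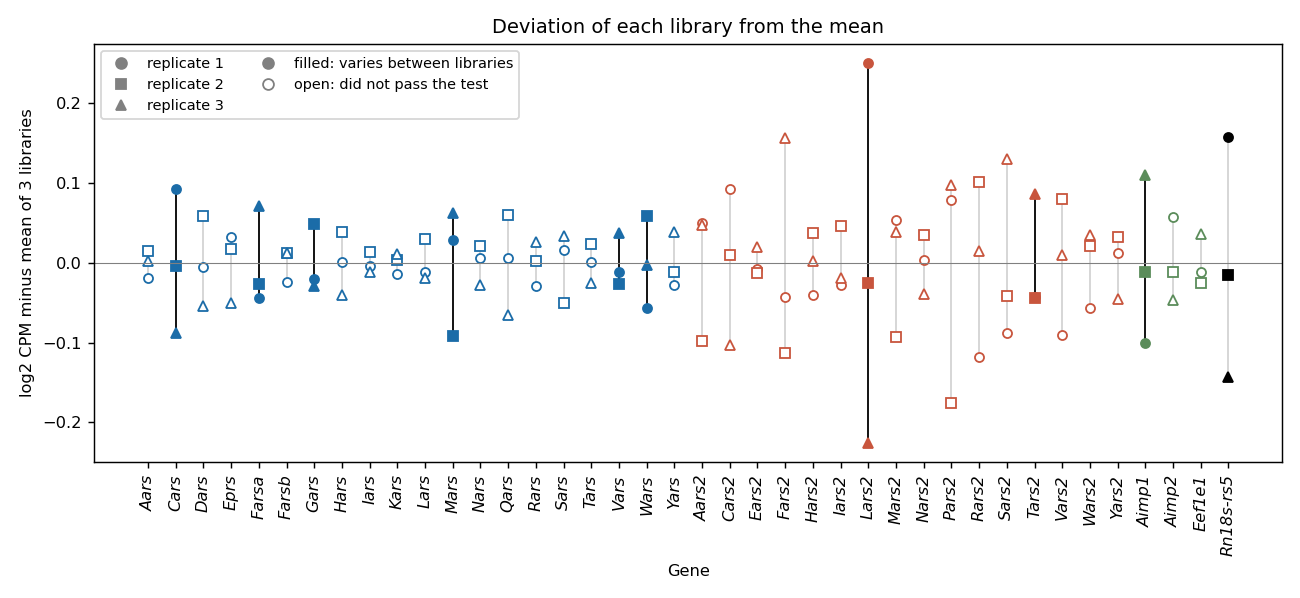
Deviation of log2 CPM in each library from the mean of the 3 libraries for each member and for Rn18s-rs5; filled marks passed the test of variation between the libraries and open marks of members did not. Lars2 spans from 0.25 to -0.23 with replicate 1 highest, and Rn18s-rs5 from 0.16 to -0.14 in the same order.

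The called members were Lars2, Mars, Cars, Aimp1, Wars, Tars2, Gars, Farsa and Vars. For Lars2 the p-value was too small to be written as a number by the software. Mars stood at 287, 264 and 294 CPM in replicates 1, 2 and 3 (edgeR adjusted p = 0.000104), with replicate 2 lowest. Cars was at 162, 152 and 143 CPM (edgeR adjusted p = 0.00226) with replicate 1 highest, and Aimp1 at 67.2, 71.5 and 77.8 CPM (edgeR adjusted p = 0.0105) with replicate 3 highest. No library was thus high or low for all of them. Apart from Lars2, the called members differed between their highest and lowest library by 1.05 to 1.16-fold.

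Several cytosolic genes had nearly the same value in each library. Iars stood at 343, 347 and 341 CPM, Kars at 350, 354 and 356, and Aars at 493, 505 and 501. The median range between the highest and lowest library was 0.07 log2 units for the cytosolic class and 0.15 for the mitochondrial class, which has fewer reads, against 0.17 over all tested genes. Range depends on level, and among genes of at least 100 CPM the median was 0.0875 for all genes and 0.0759 for the members, so those members were close to genes of like level. Under 100 CPM it was 0.203 for all genes and 0.147 for the 17 members in that range. Those 2 sets are not of like level, since tested genes reach down to a mean of 0.737 CPM and members only to 17.0 CPM. The widest range that the test did not call was that of Pars2 (20.1, 16.8 and 20.3 CPM), at 0.27 log2 units.

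Among genes that act beside the synthetases, cytosolic elongation factors stood above mitochondrial translation factors, though these lists differ in kind. The 5 cytosolic elongation factor genes had a median of 157 CPM per kilobase and ranged from 39.3 to 3192. They were led by Eef1a1 (3192 ± 112), Eef2 (1439 ± 41.8), Eef1b2 (157 ± 7.49) and Eef1g (132 ± 4.40). The 10 mitochondrial translation factor genes had a median of 4.89 and ranged from 1.10 to 21.7, with Gfm1 (elongation factor G1) at 21.7 ± 1.44, Tufm (elongation factor Tu) at 14.3 ± 0.383, Tsfm at 10.4 ± 0.776 and Mtif2 at 8.65 ± 0.334. This list also holds initiation, release and recycling factors, so its median is not a like comparison with the cytosolic one. The elongation factors Gfm1, Tufm and Tsfm by themselves also lay below the lowest cytosolic gene. In the test between libraries 4 of the 5 and 2 of the 10 (Gfm1 and Mrrf) were called. All 5 of the former are above 100 CPM, where 33.9% of genes were called, and all 10 of the latter are below it, where 8.94% were.

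Mitochondria have no separate glutamine enzyme in this set and make their glutamine transfer RNA through an amidotransferase. Its 3 subunit genes Gatb (listed under its older symbol Pet112), Gatc and Qrsl1 were at 4.0 ± 0.165, 9.46 ± 0.285 and 4.37 ± 0.412 CPM per kilobase, within the range of the mitochondrial synthetases. The 8 other charging genes had a median of 8.20, led by Trnt1 (addition of the terminal CCA, 23.8 ± 0.726), Thg1l (histidine transfer RNA maturation, 13.7 ± 0.649), Dtd1 (removal of D-amino acids, 12.6 ± 0.855) and Aarsd1 (alanyl editing, 11.2 ± 0.377). The 10 genes of transfer RNA end processing had a median of 9.80. They were led by Elac2 at 30.3 ± 1.17, Hsd17b10 at 25.6 ± 1.05, Rpp14 at 18.6 ± 0.538 and Pop1 at 11.3 ± 0.0921. Of these 21 genes, 0 were called by edgeR's test with TMM or with DESeq2 size factors, the smallest edgeR adjusted p being 0.128. An unadjusted p under 0.05 was found for 1 of them. Of all tested genes 13.7% were called. Under 100 CPM, where all of these genes but Trnt1 and Elac2 lie, 8.94% were. Whether 0 calls in so few genes departs from these shares was not tested.

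Some members lie next to each other in the genome. Hars and Hars2 on chromosome 18 run in opposite directions and overlap by 198 bases at their starts, and 165 of their 31-mers are common. Their levels differed 5.80-fold all the same. Eprs and Iars2 lie on opposite strands of chromosome 1 with 33.6 kilobases between them. Aars shares 13.8% of its 31-mers with Exosc6 and Vars2 shares 7.28% with the antisense gene Gm20483. Iars shares 14.5% with the pseudogene Gm4849, so its count is also less certain. Reads of such common sequence cannot be told apart in these counts. The 31-mers of both strands were compared together, so they do not show which of these reads knowledge of strand would separate. In all, 30 of the 39 members had under 5% of their 31-mers in transcripts of other genes, and 9 had none.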

How the data were processed

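Read counts for each gene symbol were deposited by the authors, unnormalized, for the 3 libraries. For the genome build, the submitters' processing notes name mm10. Aligner, counter, annotation, strandedness and the treatment of reads with several positions: not given in the sources used here. Genes with common sequence may have gained or lost reads.

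From the counts, CPM used the library totals, and CPM per kilobase used GENCODE vM21 (GRCm38), in which all 39 members had an exon length. Medians were of log2(CPM per kilobase + 0.1), and ratios had 0.5 added to each count. With 1 group no contrast exists and the quasi-likelihood test could not be fitted. Variation between libraries was tested with edgeR 4.0.16 (glmFit, dispersion 0, likelihood-ratio test, TMM, Benjamini-Hochberg adjustment), checked on simulated data. The simulated data held only counting noise and planted changes, so they do not show how the test behaves with other variation between libraries. Transcripts were compared with blastn 2.17.0 and by 31-mers. Of 30 promoter windows, 26 ended in bases found in the gene's own transcripts. R 4.3.3, DESeq2 1.42.0 (size factors, as an alternative), Python 3.11.15, numpy 2.4.6, pandas 2.3.3, scipy 1.17.1 and matplotlib 3.10.9 were used.

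All members, up to 4 genes of each other list with the highest level and those called could be named. Members and lists were chosen with earlier results of these data known. Of 178 list entries 168 were in the table, 3 under an older symbol.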

Additional observations from a re-analysis of the deposited data

How the results depend on the processing

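No paired analysis was possible because all 3 libraries belong to 1 group. The class difference of 2.76 log2 units kept its sign under every alternative run: 2.98 with no length scaling, 2.68 per kilobase of the longest transcript, 2.59 with means, 2.63 with a pseudocount of 1 and 2.98 without Lars2; with a library left out it was 2.75 to 2.78. The difference between complex and free synthetases was 0.36 with no length scaling, and it reversed to -0.034 per kilobase of the longest transcript and to -0.17 with means, while leaving out a library gave 0.01 to 0.03; the cause was not tested. The count of 16 pairs with the cytosolic gene higher was the same in each of the 6 alternatives, and no single pair changed sign. The 9 members called between libraries became 4 to 6 with a library left out: 5 were called without replicate 1 (3 of them among the 9), 6 without replicate 2 (5 among the 9) and 4 without replicate 3 (all 4 among the 9). All genes called fell from 1847 to between 753 and 1209; fewer libraries entered those tests. Lars2 was called in each of the 7 alternatives. With unscaled totals 6 of the 9 were among the 8 called, with no filter 6 were called, all among the 9, and with a filter of 10 CPM 11 were called, the 9 with Eprs and Qars. Where genes have few reads, as in the mitochondrial class, small differences between libraries were not detectable at this depth.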
